A study of Mus musculus with 6 samples.

Results

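The genes described here are 35 members of the NRF2 pathway and of the antioxidant enzyme systems of the cell, chosen by name and grouped by role. The choice was made with earlier results of these data known. There were 7 regulators, 7 genes of glutathione synthesis and use, 11 of the thioredoxin and peroxiredoxin systems, 4 dismutases and catalase, 4 reductases and related NRF2 targets, and 2 metallothioneins. All 35 had a row among the 57132 in the count table, and all 35 passed the filter on low counts that left 19927 genes for testing. RNA was sequenced from isolated glomeruli of mice labelled as having diabetic kidney disease (DKD). Every sample was labelled Setdb2fl/fl, with both alleles of Setdb2, which encodes a putative histone H3 lysine 9 methyltransferase, flanked by loxP sites. In 3 samples the Cre recombinase was absent (Cre-/Setdb2fl/fl DKD, here Cre_negative) and in 3 it was present (Cre+/Setdb2fl/fl DKD, here Cre_positive). The design text names podocytes, the filtration epithelium of the glomerulus, as the cells of interest, but the sources used here do not give the promoter that drives Cre, the diabetes model, strain, sex or age. No sample without diabetes is among the 6, so a level cannot be set against a healthy kidney.

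NRF2, encoded by Nfe2l2, is a transcription factor that KEAP1 holds in the cytoplasm and delivers for degradation. When electrophiles or peroxides modify KEAP1, NRF2 accumulates, pairs with a small MAF protein and binds antioxidant response elements in genes for glutathione synthesis, thioredoxin recycling, quinone reduction and NADPH supply. Much of this control acts on the NRF2 protein, so the Nfe2l2 transcript does not measure NRF2 activity. In the kidney the proximal tubule is the source of the plasma peroxidase GPX3.

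The libraries held 53571438 to 58807042 counts, and values are given as CPM, the counts relative to library size, with TMM factors, which correct for library composition. Whether each replicate is a different mouse is not labelled. The p-values therefore rest on the spread among these 6 samples, part of which may be technical. Setdb2 itself had 9.73, 8.80 and 6.58 CPM in Cre_negative replicates 1, 2 and 3 and 8.01, 7.79 and 7.29 CPM in the Cre_positive ones, with an adjusted p of 0.738. The sources used here do not name the excised exons, so this level over the whole gene does not check the genotype labels. Some libraries stood apart. Xist, transcribed from the inactive X chromosome of females, had 24 counts in Cre_positive replicate 2 and at least 36474 in each other library. In Cre_negative replicate 2, the 2 rows of Nnt, a mitochondrial source of NADPH, stood apart from the other 5 libraries in opposite directions. The labels do not say whether the 6 libraries share strain and sex. By Xist alone, Cre_positive replicate 2 lacked the female pattern of the other 5 libraries, and genes of the Y chromosome were not examined. The part of strain or sex in the results was not tested. The summed level of 11 injured epithelium markers was 12534 CPM in Cre_negative replicate 1 against 6013 and 4259 CPM in replicates 2 and 3. Podocyte markers were present (12 of 12 had counts, Nphs1 at 45.4 to 67.0 CPM), but 15 proximal tubule markers summed to 13324 to 24058 CPM, so the isolates also held tubule RNA. In such mixed RNA, fewer cells of a type and less RNA per cell cannot be told apart.

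Of the 35 antioxidant genes, 8 fell in the Cre_positive libraries, none rose and 27 did not pass. The 8 were the regulators Nfe2l2 and Maff, the glutathione gene Gclc, the thioredoxin system genes Txnrd1 and Srxn1, the NRF2 target Osgin1, and the metallothioneins Mt1 and Mt2. They make up 22.9% of the members. By edgeR's quasi-likelihood test at an adjusted p of 0.05, 3.82% of 19927 genes tested were called lower, 3.73% higher and 7.55% in either direction. The members were chosen with earlier results of these data known, so this contrast is not independent of the data. At an unadjusted p under 0.05, 9 members were lower and 1 was higher, without a count over all genes to set beside them. DESeq2 called 8 members lower and 0 higher, and 1430 and 1267 of the 19927 genes tested. With limma voom the counts were 8 and 0 members, and 684 and 745 of all genes tested. The median log2 fold change was -0.092 over the 35 members and -0.00089 over all genes tested. Most of the group therefore lay close to the Cre_negative level, and 24 of the 27 members that did not pass had a 95% confidence interval inside a 1.5-fold change either way, the exceptions being Nqo1, Cbr1 and Blvrb. The 2 genotypes did not overlap for 10 members with lower values in Cre_positive (14.5% of all genes tested) and 3 with higher values (15.2%), where 29.7% of all genes tested did not overlap in either direction.

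**Figure D1:**
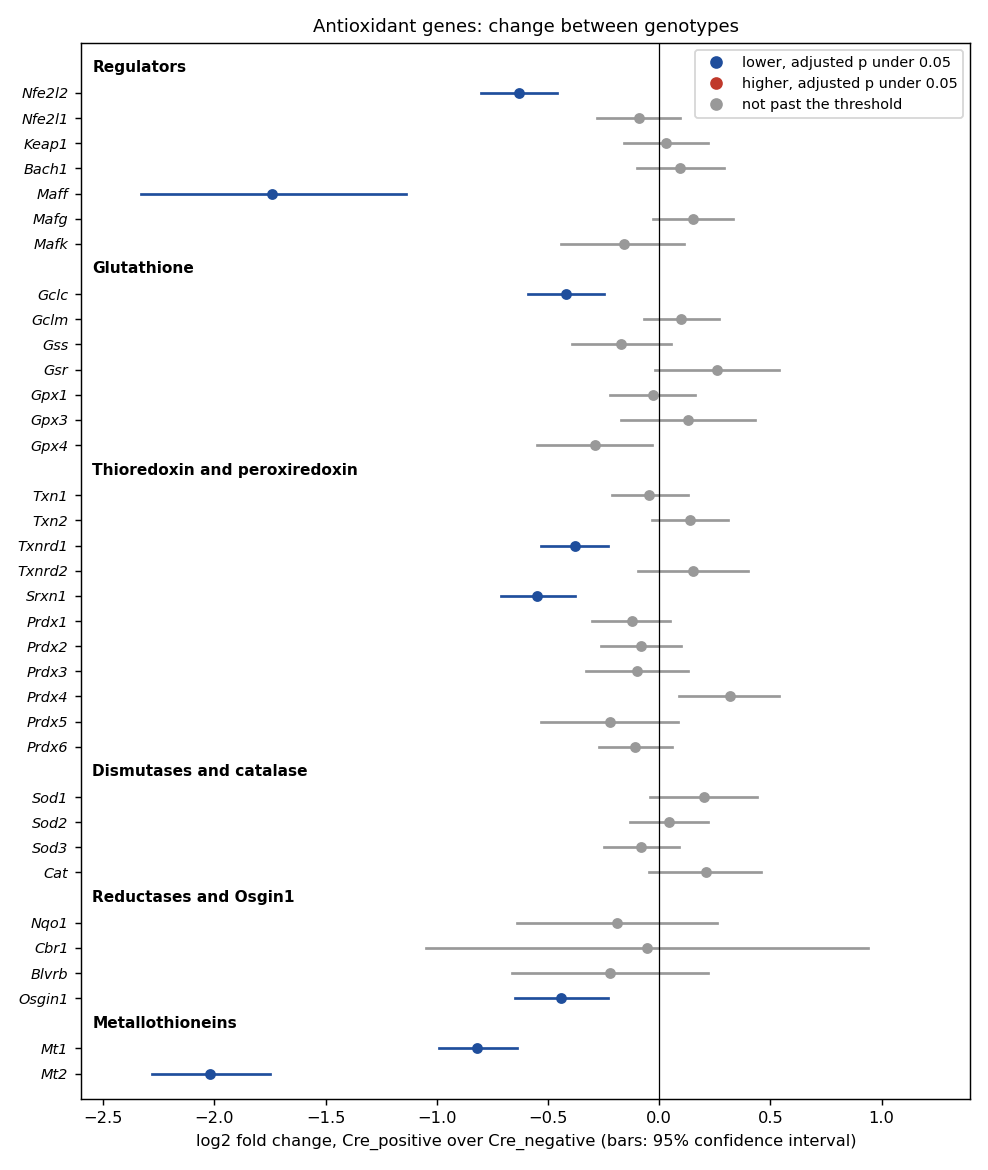
Log2 fold change of Cre_positive over Cre_negative libraries (horizontal axis) for the 35 antioxidant genes, grouped by role, with 95% confidence intervals. The 8 genes in blue passed an adjusted p of 0.05, from Mt2 at -2.02 to Txnrd1 at -0.38, and no gene passed with a higher level.

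Promoter sequences of genes that fell are shown because the best known regulators of these genes act through short elements there. The RefSeq table (GRCm38.p6) held windows of 250 bases before to 50 bases after a start site for 31 of the 35 genes, 43 windows in all. Gclc, Gsr, Prdx6 and Sod3 are named only. The antioxidant response element was searched as TGACNNNGC and the metal response element, bound by the zinc sensor MTF1, as TGCACNC or TGCGCNC, each on both strands, and matches of the 2 elements may overlap. Capitals mark every match, and positions count from 0 at the start site. Every window printed holds a match. The window of Osgin1, which holds none, and the other windows of Maff and Txnrd1 are not printed.
Nfe2l2 (chr2:75704614-75704913, minus strand): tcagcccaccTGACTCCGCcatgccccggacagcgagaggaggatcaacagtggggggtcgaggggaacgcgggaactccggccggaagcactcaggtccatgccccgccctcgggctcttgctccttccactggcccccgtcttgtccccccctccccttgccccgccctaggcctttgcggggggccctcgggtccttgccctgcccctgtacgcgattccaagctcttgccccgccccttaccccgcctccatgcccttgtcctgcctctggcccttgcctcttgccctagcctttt
Maff, the first of its 3 windows (chr15:79346371-79346670, plus strand): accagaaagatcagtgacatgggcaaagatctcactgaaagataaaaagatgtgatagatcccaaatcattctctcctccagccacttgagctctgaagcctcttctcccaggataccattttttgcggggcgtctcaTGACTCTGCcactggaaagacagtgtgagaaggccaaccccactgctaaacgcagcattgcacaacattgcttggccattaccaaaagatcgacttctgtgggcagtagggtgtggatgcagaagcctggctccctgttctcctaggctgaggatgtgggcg
Srxn1 (chr2:152105274-152105573, plus strand): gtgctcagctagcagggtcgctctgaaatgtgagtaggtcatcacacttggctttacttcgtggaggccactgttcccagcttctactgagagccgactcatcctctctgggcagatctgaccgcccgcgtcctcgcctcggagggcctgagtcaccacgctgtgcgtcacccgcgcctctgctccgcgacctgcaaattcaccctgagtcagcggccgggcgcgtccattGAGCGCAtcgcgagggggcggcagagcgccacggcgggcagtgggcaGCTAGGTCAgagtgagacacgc
Txnrd1, the second of its 3 windows (chr10:82858956-82859255, plus strand): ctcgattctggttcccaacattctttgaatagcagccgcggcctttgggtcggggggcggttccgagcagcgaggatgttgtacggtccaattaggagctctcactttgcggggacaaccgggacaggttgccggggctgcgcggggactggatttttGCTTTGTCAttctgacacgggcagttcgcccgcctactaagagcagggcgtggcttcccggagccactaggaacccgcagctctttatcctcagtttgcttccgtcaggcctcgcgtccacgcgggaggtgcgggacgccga
Mt1 (chr8:94178839-94179138, plus strand): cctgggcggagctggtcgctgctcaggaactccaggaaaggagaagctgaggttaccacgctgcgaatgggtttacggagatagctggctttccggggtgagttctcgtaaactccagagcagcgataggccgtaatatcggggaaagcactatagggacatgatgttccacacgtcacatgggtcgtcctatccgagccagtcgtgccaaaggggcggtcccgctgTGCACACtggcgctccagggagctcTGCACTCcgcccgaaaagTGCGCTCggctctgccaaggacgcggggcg
Mt2 (chr8:94172368-94172667, plus strand): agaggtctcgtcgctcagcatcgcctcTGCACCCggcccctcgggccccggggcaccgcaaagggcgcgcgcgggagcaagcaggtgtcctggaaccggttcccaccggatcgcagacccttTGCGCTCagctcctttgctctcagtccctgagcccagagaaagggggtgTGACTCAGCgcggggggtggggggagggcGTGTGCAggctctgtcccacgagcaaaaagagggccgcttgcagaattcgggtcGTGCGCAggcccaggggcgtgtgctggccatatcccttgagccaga

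The antioxidant response element letters stood on the strand of the gene in Nfe2l2 (TGACTCCGC from -240), Maff (TGACTCTGC from -112) and Mt2 (TGACTCAGC from -79). In Txnrd1 (GCTTTGTCA from -92) and Srxn1 (GCTAGGTCA from 28) they stood on the opposite strand. Mt1 held 3 matches to the metal element, TGCACAC from -23, TGCACTC from 2 and TGCGCTC from 20, and Mt2 held 4, TGCACCC from -223, TGCGCTC from -128, GTGTGCA from -50 and GTGCGCA from 4. At least 3 metal element matches occurred in 1.97% of the 32851 windows in the table, and in 3 of the members' windows, those of Mt1, Mt2 and Gclm, which did not pass. Srxn1 had 1 match to the metal element, GAGCGCA from -19, and the third window of Maff had 2 that overlap on opposite strands. Among the genes that fell, 5 of 7 with a window (5 of 11 windows, 45.5%) held the antioxidant element letters, against 5 of 24 genes (5 of 32 windows, 15.6%) among those that did not pass and 12.4% of all windows. The metal element letters were in 25.7% of all windows and in 20.9% of the members' windows, 4 of 11 (36.4%) for the genes that fell and 5 of 32 (15.6%) for those that did not pass. The Osgin1 window held neither pattern, and the remaining genes with an antioxidant match were Gclm, Mafg, Mafk, Prdx1 and Sod1. The antioxidant pattern required TGAC, so the similar run TGAGTCAGC was not counted. That run stands in the Srxn1 window and, on the opposite strand, in the Osgin1 window. How many of the other windows hold it was not counted, and the shares above are for the searched pattern only. A match is a run of letters and not a measured binding site.

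Among the regulators, the NRF2 transcript and the small MAF gene Maff fell, while the KEAP1 transcript and the other small MAF genes did not pass. Nfe2l2 (ENSMUSG00000015839) had 220.0, 233 and 247 CPM in Cre_negative replicates 1, 2 and 3 and 158, 144 and 151 CPM in the Cre_positive ones. Every Cre_positive library lay below every Cre_negative one, and the gap between the genotypes exceeded the range within either. The mean went from 233 ± 13.4 to 151 ± 6.77 CPM (SD, n = 3), which is a log2 fold change of -0.63 (standard error 0.0743, adjusted p = 0.00230), or 0.647 times the Cre_negative level with a 95% confidence interval of 0.575 to 0.727. Maff (ENSMUSG00000042622), a small MAF that lacks an activation domain of its own, had 7.18, 5.73 and 5.46 CPM against 1.43, 2.48 and 1.60 CPM. It was the scarcest of the 35 genes per kb of exon, and the values rest on 307 to 436 counts in Cre_negative and 76 to 141 counts in Cre_positive libraries. Its log2 fold change was -1.74 (standard error 0.264, adjusted p = 0.00687).

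Keap1, the adaptor that targets NRF2 to the CUL3 ubiquitin ligase, had 47.7, 55.9 and 47.4 CPM against 50.5, 52.4 and 51.5 CPM. The Cre_positive values fell inside the Cre_negative range, at a log2 fold change of 0.033 with a 95% confidence interval of -0.16 to 0.22. Bach1, a repressor that competes with NRF2 for its elements, stood at 33.2 ± 2.59 and 35.5 ± 0.942 CPM (SD, n = 3; log2 fold change 0.095). Nfe2l1, which encodes the related factor NRF1, had a log2 fold change of -0.092. Mafg, the most abundant small MAF, stood at 0.15 (95% confidence interval -0.027 to 0.33) and Mafk at -0.16 (-0.44 to 0.11), both short of the threshold. The ratio of Nfe2l2 to Keap1 was 4.61, 4.17 and 5.21 in the Cre_negative and 3.12, 2.75 and 2.93 in the Cre_positive libraries, and that of Maff to Mafg was 0.0613, 0.0435 and 0.0400 against 0.0103, 0.0163 and 0.0116. Both ratios were lower in all 3 Cre_positive libraries. They belong to 5 ratios chosen after the values were seen, each put to an exact permutation test, two-sided, on the log2 scale. All 5 gave an exact p = 0.1, also after Benjamini-Hochberg adjustment, the smallest that 3 against 3 libraries allow.

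**Figure D2:**
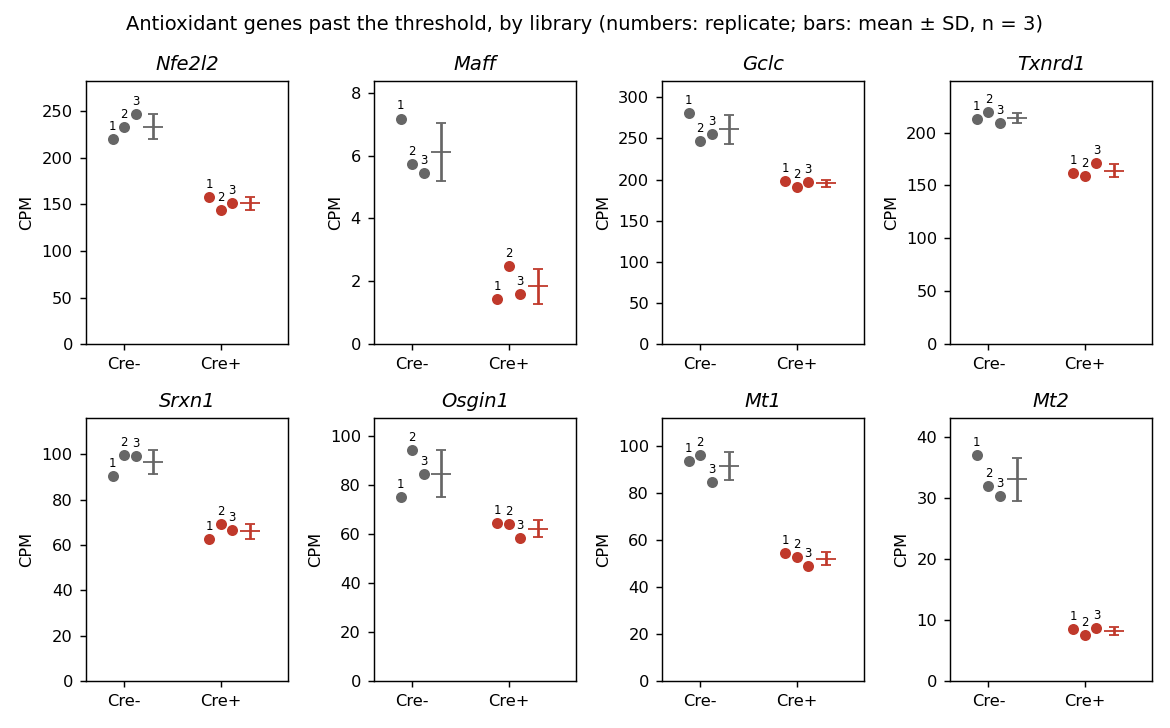
CPM (vertical axes, from 0) of the 8 antioxidant genes that fell, in each library, with grey points for Cre_negative and red points for Cre_positive, numbered by replicate, and bars for mean ± SD (n = 3). In all 8 panels the 3 red points lie below the 3 grey ones, for Mt2 at 7.50 to 8.63 CPM against 30.3 to 37.1 CPM.

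In the glutathione group, the catalytic subunit of the first enzyme of synthesis fell and the other 6 genes did not pass. Gclc (ENSMUSG00000032350), the catalytic subunit of glutamate-cysteine ligase, had 281, 247 and 255 CPM in Cre_negative and 198, 191 and 197 CPM in Cre_positive libraries. The genotypes did not overlap, and the log2 fold change was -0.42 (standard error 0.0746, adjusted p = 0.0135). Gclm, the modifier subunit of the same ligase and also a known NRF2 target, had 256, 278 and 267 CPM against 300.2, 273 and 284 CPM. Its log2 fold change was 0.10 with a 95% confidence interval of -0.07 to 0.27, and its groups overlapped. The ratio of Gclc to Gclm was 1.10, 0.887 and 0.958 in Cre_negative and 0.661, 0.701 and 0.691 in Cre_positive libraries, a log2 difference of -0.51. This ratio was chosen after the values were seen, and its exact permutation p of 0.1 is the smallest possible. Gss, which adds glycine in the second step, stood at -0.17 (adjusted p = 0.347) and Gsr, which regenerates reduced glutathione, at 0.26 (adjusted p = 0.246). Leaving out any 1 Cre_positive library ended the call of Gclc (at most 0.0720).

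The selenium-dependent glutathione peroxidases did not pass. Gpx3, secreted by the proximal tubule, was the most abundant of the 35 genes at 8485 ± 1265 CPM per kb of exon in Cre_negative and 9292 ± 746 CPM per kb in Cre_positive libraries (SD, n = 3). Its CPM of 12861, 17342 and 15949 overlapped the 15595, 16664 and 18283 of Cre_positive libraries. Gpx1, the cytosolic enzyme, came next per kb and had a log2 fold change of -0.028. Gpx4, which reduces lipid hydroperoxides in membranes, had 390.0, 499 and 404 CPM against 326, 388 and 345 CPM. The groups did not overlap, at a log2 fold change of -0.29 (standard error 0.113), but the adjusted p of 0.167 missed the threshold.

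In the thioredoxin and peroxiredoxin group, the enzymes that reduce thioredoxin and oxidised peroxiredoxin in the cytosol fell, and 9 of 11 genes did not pass. Srxn1 (ENSMUSG00000032802), sulfiredoxin, which repairs overoxidised peroxiredoxins, had 90.5, 99.8 and 99.3 CPM in Cre_negative and 62.6, 69.1 and 66.5 CPM in Cre_positive libraries. The log2 fold change was -0.55 (standard error 0.0728, adjusted p = 0.00402). Txnrd1 (ENSMUSG00000020250), cytosolic thioredoxin reductase, had 213, 219 and 209 CPM against 162, 159 and 171 CPM, and both genotypes held within narrow ranges. Its log2 fold change was -0.38 (standard error 0.0668, adjusted p = 0.0123), and leaving out any 1 Cre_positive library ended its call (at most 0.0675). Txnrd2, the mitochondrial reductase, had 22.6, 27.2 and 28.1 CPM against 30.0, 30.0 and 26.5 CPM, a log2 fold change of 0.15 with a 95% confidence interval of -0.094 to 0.40. The ratio of Txnrd1 to Txnrd2, also chosen after the values were seen, was 9.44, 8.04 and 7.43 against 5.39, 5.28 and 6.47. Its log2 difference was -0.54, with an exact permutation p of 0.1, the smallest possible.

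The thioredoxins and the peroxiredoxins themselves did not pass. Txn1, cytosolic thioredoxin, stood at a log2 fold change of -0.044 and its mitochondrial counterpart Txn2 at 0.14. Prdx1, a peroxide-reducing enzyme and known NRF2 target, had 596, 551 and 536 CPM against 519, 506 and 519 CPM. Its groups did not overlap, but the log2 fold change was -0.12 (adjusted p = 0.379). Prdx4, the peroxiredoxin of the endoplasmic reticulum, had 16.9, 15.2 and 15.4 CPM against 20.8, 18.8 and 19.4 CPM, the highest log2 fold change of the 35 at 0.32 (standard error 0.1, adjusted p = 0.0974). Prdx2, Prdx3, Prdx5 and Prdx6 had log2 fold changes of -0.08, -0.10, -0.22 and -0.11, with overlapping groups and adjusted p of at least 0.371.

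None of the superoxide dismutases or catalase passed, with 0 of 4 at an unadjusted p under 0.05 in edgeR and 0 of 4 by DESeq2 or limma voom. These enzymes turn superoxide into hydrogen peroxide and hydrogen peroxide into water. Cat, the peroxisomal catalase, had 649, 851 and 778 CPM in Cre_negative and 818, 890.2 and 919.9 CPM in Cre_positive libraries, a log2 fold change of 0.21 with a 95% confidence interval of -0.046 to 0.46. Sod1 of the cytosol stood at 0.20 (-0.039 to 0.44), Sod2 of the mitochondria at 0.043 (-0.13 to 0.22) and the secreted Sod3 at -0.08 (-0.25 to 0.088). All 4 groups overlapped.

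Of the reductases and related targets, Osgin1 fell and Nqo1, Cbr1 and Blvrb did not pass. Osgin1 (ENSMUSG00000074063), a regulator of growth and cell death that NRF2 induces, had 75.1, 94.0 and 84.4 CPM against 64.4, 63.9 and 58.1 CPM. The log2 fold change was -0.44 (standard error 0.0930, adjusted p = 0.0244), and the call ended without Cre_negative replicate 2 (adjusted p = 0.0579) or any 1 Cre_positive library (at most 0.114). Nqo1, the NAD(P)H quinone reductase often used as a readout of NRF2, had 40.6, 60.9 and 68.9 CPM in Cre_negative and 53.2, 53.2 and 43.4 CPM in Cre_positive libraries. Cre_negative replicate 1 was the lowest of the 6 libraries and replicate 3 the highest, and the 95% confidence interval of -0.64 to 0.26 allows between 0.644 and 1.20 times the Cre_negative level. Without Cre_negative replicate 1 the log2 fold change of Nqo1 was -0.38 (adjusted p = 0.0954), and without replicate 3 it was -0.023 (adjusted p = 0.958).

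Cbr1, a carbonyl reductase, varied most among replicates, with 167, 368 and 256 CPM in Cre_negative and 365, 222 and 174 CPM in Cre_positive libraries. Its interval of -1.05 to 0.94 spans 0.481 to 1.92 times the Cre_negative level. Blvrb, biliverdin reductase B, had a log2 fold change of -0.22 (adjusted p = 0.560), with Cre_negative replicate 2 at 18.3 CPM above the other 5 libraries at 10.5 to 12.9 CPM.

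**Figure D3:**
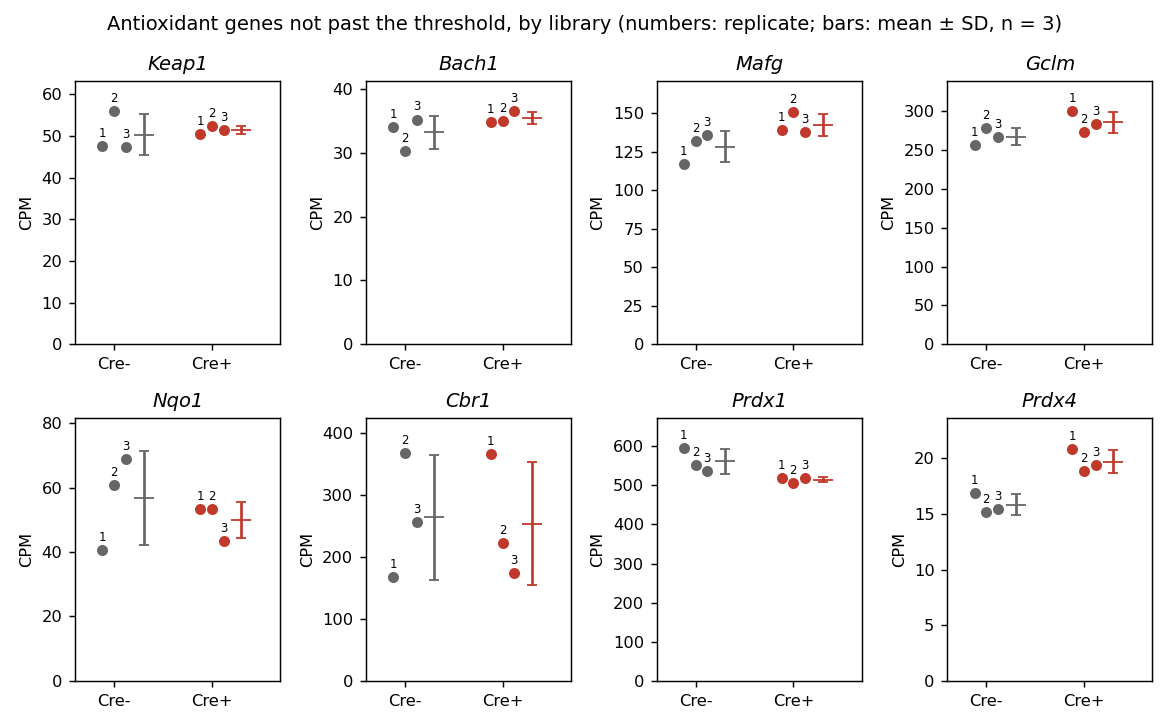
CPM (vertical axes, from 0) in each library of 8 antioxidant genes that did not pass, drawn as for the genes that fell, with numbers for replicates and bars for mean ± SD (n = 3). Keap1 and Gclm overlap between genotypes, Prdx4 is higher in the 3 Cre_positive libraries without passing, and Cbr1 spreads over 167 to 368 CPM.

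The metallothioneins, small cysteine-rich proteins that bind zinc and copper and scavenge radicals, showed the smallest adjusted p-values of the 35 genes. Mt2 (ENSMUSG00000031762) had 37.1, 32.0 and 30.3 CPM in Cre_negative and 8.46, 7.50 and 8.63 CPM in Cre_positive libraries. It fell 4.04-fold, with a log2 fold change of -2.02 (standard error 0.115, adjusted p = 5.62e-05) and a 95% confidence interval of -2.28 to -1.75. Mt1 (ENSMUSG00000031765) had 93.9, 96.4 and 84.9 CPM against 54.5, 52.8 and 49.0 CPM, a 1.76-fold fall with a log2 fold change of -0.82 (standard error 0.0777, adjusted p = 0.000868). For both genes the genotypes were far apart and the replicates close.

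The 2 metallothioneins did not fall by the same amount. The ratio of Mt2 to Mt1 was 0.395, 0.332 and 0.357 in Cre_negative and 0.155, 0.142 and 0.176 in Cre_positive libraries, a log2 difference of -1.20. It too was chosen after the values were seen, and its exact permutation p was 0.1, the smallest possible. The genes are similar in sequence and reads could be shared between them, so their counts were also added. The sum was 131, 128 and 115 CPM against 62.9, 60.3 and 57.7 CPM, a log2 difference of -1.05, with a two-sided exact permutation p of 0.1, the smallest possible. Among the 8 genes that fell, Mt2 was the one whose exons overlap those of another annotated gene with counts. That gene, the antisense transcript Gm45774, had 238, 144 and 125 counts in Cre_negative and 53, 58 and 66 counts in Cre_positive libraries, against 1705 to 2254 and 427 to 463 counts of Mt2. Its log2 fold change was -1.43 (adjusted p = 0.0240), and the strand setting of the counting is not given in the sources used here, so reads of this pair cannot be assigned with certainty. Of the genes around the metallothioneins, their zinc-sensing activator Mtf1 stood at -0.046 (adjusted p = 0.804) and the zinc exporter Slc30a1, another target of that factor, at 0.32 (adjusted p = 0.119).

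Levels of different genes were compared per kb of exon. The 10 most abundant of the 35 in Cre_negative libraries, from Gpx3 at 8485 to Cbr1 at 103 CPM per kb, held none of the genes that fell. The 8 that fell ranged from Mt1 at 73.6 ± 4.87 to Maff at 2.36 ± 0.357 CPM per kb (SD, n = 3). In that order Mt1 went from rank 11 to rank 18, Nfe2l2 from 13 to 19 and Mt2 from 15 to 28, as its level went from 56.3 ± 6.04 to 13.9 ± 1.04 CPM per kb. Neighbours in the order often overlapped. In Cre_negative libraries Prdx2 (56.6 to 64.2 CPM per kb), Nfe2l2 (58.0 to 65.0) and Mt2 (51.5 to 63.1) had overlapping ranges, as had Sod1, Gclm and Gsr. Exons of Gss, Prdx2, Prdx5 and Mafk overlap those of protein-coding genes on the opposite strand, and those of Mafg overlap Sirt7 on the same strand, so these levels are uncertain. The level of Txnrd2 is uncertain too.

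**Figure D4:**
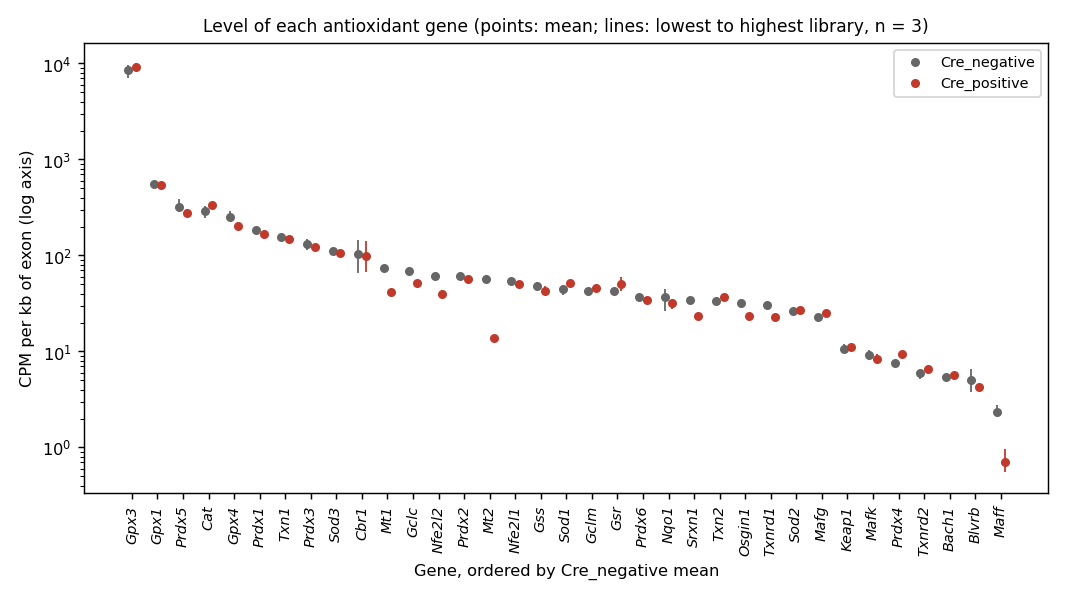
Level of each of the 35 antioxidant genes in CPM per kb of exon (vertical axis, log scale), ordered by the Cre_negative mean, with points for means and lines from the lowest to the highest library (n = 3 per genotype). Gpx3 lies far above the rest, and Mt2 and Maff show the widest gaps between the genotypes.

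Further genes of the pathway were taken from lists written by name, also with earlier results of these data known. They held 35 genes tied to NRF2 and 32 other redox genes, of which 34 and 30 were tested. Trim16l was not matched by symbol, and Gpx2 and Mt4 had too few counts. In the first list 6 fell (17.6%), 1 rose and 27 did not pass. Over all genes tested, 3.82% were called lower and 3.73% higher. Ephx1, a microsomal epoxide hydrolase of detoxification, had 295, 306 and 358 CPM in Cre_negative and 57.7, 66.6 and 57.0 CPM in Cre_positive libraries. Its log2 fold change of -2.40 (standard error 0.103, adjusted p = 1.05e-05) exceeded that of every gene among the 35 members. Hmox1, the haem oxygenase that NRF2 induces and BACH1 represses, had 39.0, 35.0 and 35.5 CPM against 22.7, 17.2 and 18.3 CPM, a log2 fold change of -0.91 (standard error 0.117, adjusted p = 0.00351).

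The pentose phosphate pathway makes NADPH, the electron source for the reductases above. G6pdx, its first and rate-limiting enzyme, fell. It had 58.7, 54.8 and 51.7 CPM against 33.1, 35.1 and 37.9 CPM, a log2 fold change of -0.64 (standard error 0.0844, adjusted p = 0.00401). Pgd, the next NADPH-producing enzyme, named after its values were seen, stood at -0.29 (adjusted p = 0.0401), a call that ended without any library but Cre_negative replicate 3 (at most 0.150) and with the replicate block (0.0635). Tkt and Taldo1 of the later steps did not pass, at -0.18 (adjusted p = 0.348) and -0.30 (adjusted p = 0.0743). Me1 and Idh1 of the same list, also named after their values were seen, did not pass either. Me1 stood at 0.30 (adjusted p = 0.0666), higher in every Cre_positive library than in any Cre_negative one. Idh1 stood at -0.26 (adjusted p = 0.310), with overlapping groups. Of the glutathione transferases, Gstp1 changed by -0.70 (standard error 0.145, adjusted p = 0.0268) and the microsomal Mgst1 by -0.41 (standard error 0.0904, adjusted p = 0.0295). The 7 alpha and mu class genes did not pass. Among these, Gstm2 was higher in every Cre_positive library than in any Cre_negative one, at 0.58 (adjusted p = 0.107), and the others overlapped. Gstp1 has a near-identical neighbour, Gstp2, and its count is uncertain. Ftl1, the ferritin light chain that stores iron, rose from 1612 ± 77.2 to 2191 ± 55.2 CPM (SD, n = 3; log2 fold change 0.44, adjusted p = 0.0172), while the heavy chain Fth1 stood at -0.18 (adjusted p = 0.380). Leaving out any 1 Cre_positive library ended the calls of Ftl1, Gstp1 and Mgst1 (at most 0.0870, 0.0924 and 0.111), and that of Mgst1 ended also without Cre_negative replicate 2 or 3.

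Other NRF2-linked genes did not pass. Sqstm1, the autophagy receptor p62 that sequesters KEAP1, had 454, 425 and 487 CPM against 430.1, 456 and 444 CPM, a log2 fold change of -0.038. Slc7a11, the cystine importer, was near the limit of detection at 0.231 to 0.805 CPM in Cre_negative and 0.130 to 0.263 CPM in Cre_positive libraries (adjusted p = 0.256). The CUL3 ligase subunits Cul3 and Rbx1 stood at -0.17 (adjusted p = 0.196) and -0.051 (adjusted p = 0.726). Cbr3, a carbonyl reductase singled out after its values were seen, had 14.1, 33.2 and 11.7 CPM against 8.31, 4.35 and 4.12 CPM (log2 fold change -1.81, adjusted p = 0.0879), and passed with DESeq2 (0.0135) and with robust=FALSE (0.0434).

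In the list of other redox genes, 5 fell (16.7%), 2 rose and 23 did not pass. The shares over all genes tested were 3.82% lower and 3.73% higher. Txnip, which binds and inhibits thioredoxin and is induced by glucose, had 1214, 933 and 1142 CPM in Cre_negative and 624, 702 and 595 CPM in Cre_positive libraries, a log2 fold change of -0.78 (standard error 0.117, adjusted p = 0.00674). Glrx3, a glutaredoxin that carries iron-sulfur clusters, changed by -0.54 (standard error 0.0756, adjusted p = 0.00486) and Msrb1, a methionine sulfoxide reductase, by -0.54 (standard error 0.109, adjusted p = 0.0209). The sestrin Sesn3 changed by -0.32 (adjusted p = 0.0224) and Sesn2, named after its values were seen, by -0.41 (adjusted p = 0.0474). Gpx6, a glutathione peroxidase, rose from 28.0 ± 8.59 to 70.8 ± 10.4 CPM (SD, n = 3), or by 1.34 on the log2 scale (standard error 0.245, adjusted p = 0.0252), and Selenos, a selenoprotein of the endoplasmic reticulum, by 0.44 (adjusted p = 0.0193). Leaving out any 1 Cre_positive library ended the calls of Gpx6, Msrb1 and Sesn3 (at most 0.0826, 0.0836 and 0.0996), and those of Gpx6 and Msrb1 ended also without Cre_negative replicate 2. Selenos lost its call without Cre_negative replicate 2 or Cre_positive replicate 2 or 3 (at most 0.0969). Sesn2 lost its call without replicate 1 or 3 of either genotype (at most 0.171), with limma voom (0.0561), with robust=FALSE (0.0560) and with the replicate block (0.0645). Gpx6 did not pass with no filter (0.0520).

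**Figure D5:**
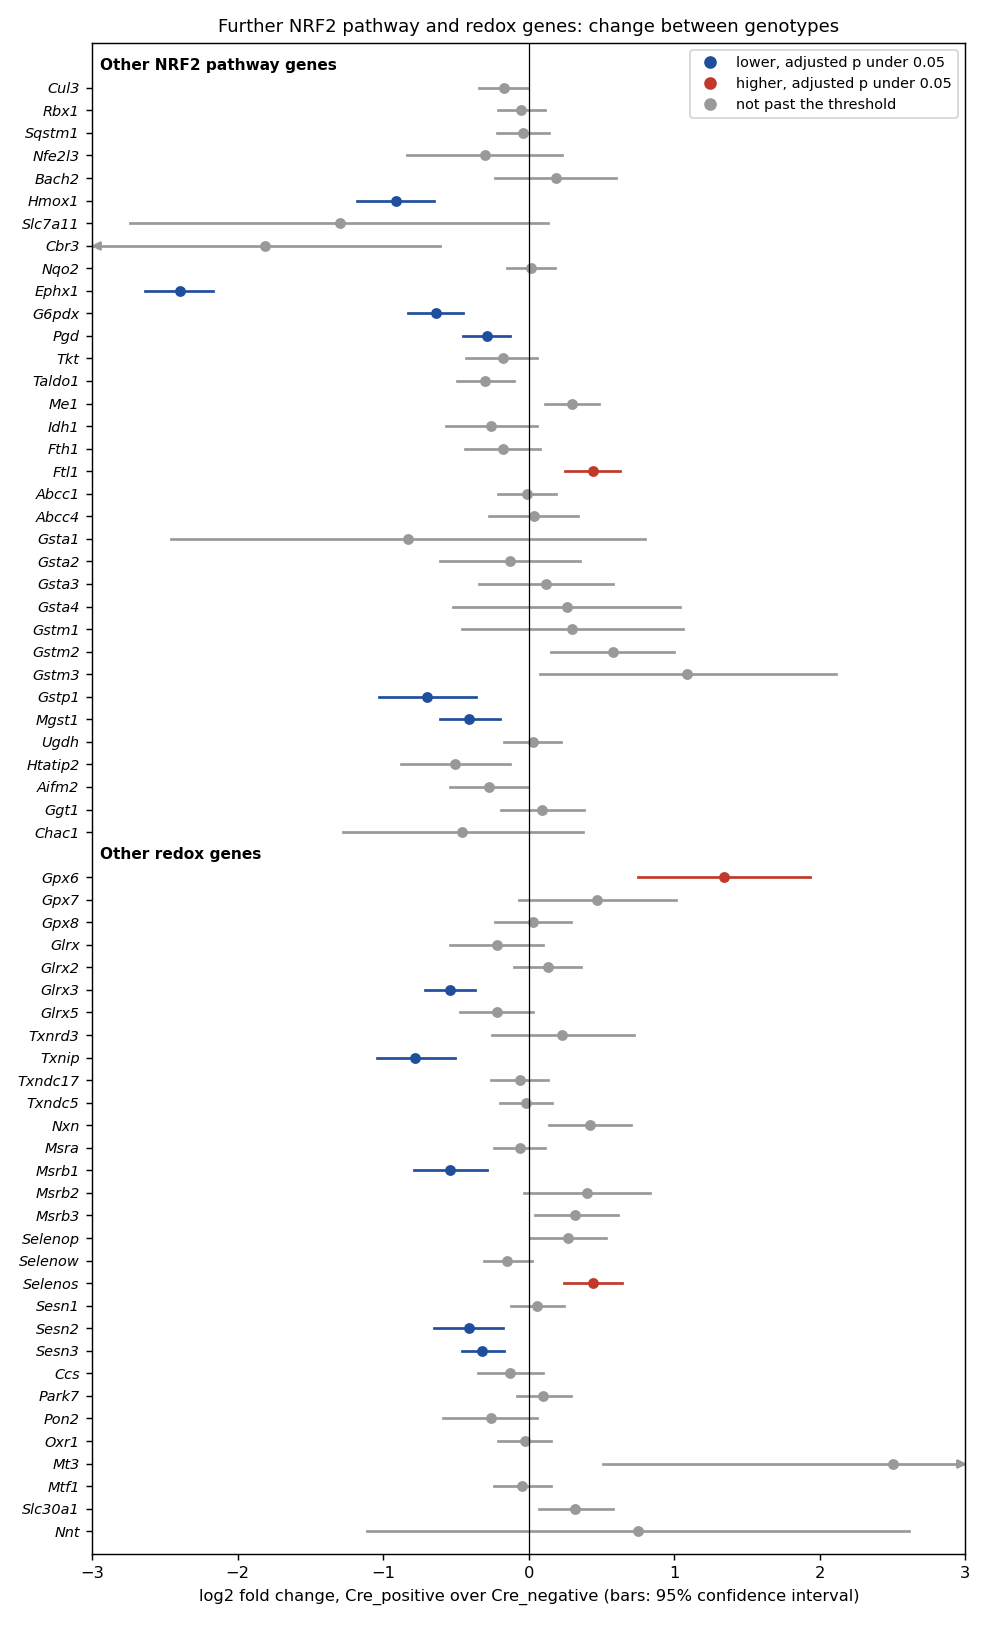
Log2 fold change of Cre_positive over Cre_negative libraries (horizontal axis) for 34 further NRF2 pathway genes and 30 further redox genes, with 95% confidence intervals and arrowheads where an interval runs past the axis. Blue marks the 11 genes that fell, led by Ephx1 at -2.40, and red the 3 that rose.

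Markers of several cell types moved with the same contrast. For the counts of markers called, the shares over all genes tested were 3.82% lower and 3.73% higher. The 11 injured epithelium markers summed to 4259 to 12534 CPM in Cre_negative and 2148 to 2417 CPM in Cre_positive libraries, and 5 of 11 were called lower. The 15 proximal tubule markers summed to 13324 to 17458 and 23128 to 24058 CPM, with 6 called higher. Kap, an androgen-regulated kidney protein, made up much of that gap, at 138 to 448 and 5582 to 6818 CPM. Without it, a choice made after the values were seen, the sums were 13186 to 17312 and 16412 to 18476 CPM and overlapped, and Slc22a6 and Pck1 were lower in the 3 Cre_positive libraries without passing. The 10 markers of Henle's loop and the distal nephron summed to 6083 to 7517 and 9772 to 10358 CPM (6 higher). Podocyte markers summed to 649 to 739 and 874 to 983 CPM (3 of 12 called higher), glomerular endothelial markers to 659 to 793 and 1004 to 1092 CPM (8 of 10 higher) and mesangial markers to 300.4 to 405 and 399 to 429.6 CPM (3 higher and 1 lower of 8 tested). Macrophage markers summed to 192 to 364 and 179 to 192 CPM (2 of 11 lower), lymphocyte and neutrophil markers to 2.15 to 5.99 and 3.73 to 7.20 CPM, and red blood cell markers to 125 to 282 and 332 to 684 CPM (1 of 6 higher, Slc4a1, which is also among the distal nephron markers). Each of the 93 distinct markers had counts in at least 1 library. Of the 8 antioxidant genes that fell, Maff, Gclc and Mt2 had their highest Cre_negative value in replicate 1, the library highest in injured epithelium markers, and the other 5 in replicate 2 or 3. The part of these marker shifts in the falls of the antioxidant genes was not tested.

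The calls of Nfe2l2, Maff, Srxn1, Mt1 and Mt2 held when each of the 6 libraries was left out in turn. The highest adjusted p was then 0.0229 for Nfe2l2, 0.0461 for Maff, 0.0298 for Srxn1, 0.00892 for Mt1 and 0.00105 for Mt2. Without Cre_positive replicate 2, the library with few Xist counts, or without either of the other Cre_positive libraries, 5 of the 35 genes were called, and without Cre_negative replicate 1 all 8 were. Calls over all genes fell too. They went from 1505 of 19927 tested to 700 of 20602, 605 of 20562 and 462 of 20630 without Cre_positive replicates 1, 2 and 3. Without Cre_negative replicate 1 they were 1143 of 20502.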

How the data were processed

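RNA of isolated glomeruli was sequenced from 6 samples, 3 per genotype. Per the labels' protocols, libraries were made from polyadenylated RNA with strand marking and read from both ends. The authors deposited whole-number read counts per Ensembl gene. The tools in the submitters' processing notes are HISAT2, StringTie, fastp and edgeR, and the build is GRCm39. The sources used here do not give the annotation release or strand setting.

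Symbols came from a table that covered 51880 of 57132 rows. Exon lengths and overlaps came from GENCODE M21 (GRCm38), another build than the counts', so the coordinates printed are those of the RefSeq promoter windows (GRCm38.p6) alone. Counts were analysed with R 4.3.3 and edgeR 4.0.16 (filterByExpr, TMM, robust=TRUE, quasi-likelihood test). P-values were adjusted by Benjamini-Hochberg over the 19927 genes tested, and 0.05 was the threshold. A standard error is the size of the log2 fold change over the root of its F statistic. CPM use TMM factors of 0.979 to 1.03. The fit was tested on simulated data. Other settings were DESeq2 1.42.0 and its size factors, upper-quartile factors, limma 3.58.1 voom, other filters, robust=FALSE, a replicate block and leaving out each library. Every pair of libraries differed beyond sampling noise (chi-square per degree of freedom at least 20.6). Members and lists were chosen with earlier results of these data known. All members are reported, with values per sample for those past the threshold and for Nfe2l2, Keap1, Nqo1, Mt1 and Mt2, and up to 6 called genes per further list by smallest p, plus Hmox1, Slc7a11 and Sqstm1.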

Additional observations from a re-analysis of the deposited data

How the results depend on the processing

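Of the 35 antioxidant genes, the same 8 were called lower and none higher under each of 8 other settings: DESeq2 size factors or upper-quartile factors in edgeR, DESeq2, limma voom, no filter, at least 1 CPM in 3 libraries, robust=FALSE, and the replicate block. DESeq2 called 2697 genes in all, against 1505. Deviations of same-numbered libraries correlated weakly, at 0.0547, 0.0551 and 0.0173, although 6 of 6 libraries correlated best with their own number. Whether the replicate numbers mark a pairing or a batch is not labelled and was not tested. With the replicate block 8 members, 13 further pathway genes (against 14) and 1541 genes were called. When each library was left out in turn, 5 to 8 members, 5 to 17 further pathway genes and 462 to 2039 genes were called, and the summed metallothionein difference ranged from -1.11 to -1.01. The lowest counts came without a Cre_positive library: 700, 605 and 462 genes without replicates 1, 2 and 3. Without Cre_negative replicate 2, 9 further pathway genes were called. Genes that did not pass and lay near 0 changed sign when single libraries were left out, with log2 fold changes from -0.0077 to 0.11 for Keap1, -0.082 to 0.01 for Gpx1, -0.09 to 0.00052 for Txn1, -0.0079 to 0.10 for Sod2, -0.41 to 0.26 for Cbr1, -0.38 to 0.03 for Blvrb and -0.088 to 0.013 for Sqstm1. The cause of these shifts was not tested. With 3 libraries a genotype, no exact test here can go below p = 0.1.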

Other observations

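Nnt, the mitochondrial transhydrogenase that supplies NADPH to the glutathione and thioredoxin reductases, was singled out after its values were seen. It has 2 rows in the count table. One (ENSMUSG00000025453) had 12.4 CPM in Cre_negative replicate 2 and 84.3 to 109 CPM in the other 5 libraries. The other (ENSMUSG00000116207) had 149 CPM in that library and 61.1 to 74.2 CPM in the others. Summed over both rows the level was 151, 162 and 146 CPM in Cre_negative and 171, 169.8 and 168 CPM in Cre_positive libraries. Whether the libraries share a strain is not labelled.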
